A study of Mus musculus with 14 samples.

Results

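Mitochondrial ribosomal protein genes were taken as the genes on the array whose symbol begins with Mrpl or Mrps followed by a digit. This rule found 74 of 12393 genes, carried by 127 of 20380 probe sets with 1 gene symbol, and each gene was followed through the probe set of its highest mean log2 signal over all arrays. All 74 passed the filter on dim genes, which left 7436 genes for testing. Among them 49 encode proteins of the large subunit of the mitochondrial ribosome and 24 proteins of the small subunit. Mrps30 and Mrps18a carry a small subunit name but belong to the large one. Mrps36, the remaining gene, is named like a ribosomal protein but encodes a component of the α-ketoglutarate dehydrogenase complex.

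The mitochondrial ribosome translates the few messages of mitochondrial DNA, all of them for core subunits of the respiratory chain and ATP synthase. Its RNA comes from mitochondrial DNA, but its proteins are encoded in the nucleus, made in the cytoplasm and imported. Some have counterparts in bacterial ribosomes and others were added during the evolution of mitochondria. In white fat, mitochondria supply acetyl units and ATP for lipid synthesis and oxidise fuel, and their number increases as adipocytes differentiate.

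RNA of epididymal fat was measured in 14 ICR mice labelled male, all 3 weeks old. The 5 CC mice had dams with free access to food through pregnancy and lactation. For the 5 UC mice, the dam's food was cut by 50% in pregnancy and was then free during suckling. For the 4 UU mice, the 50% restriction covered both pregnancy and suckling. UC against CC therefore concerns prenatal restriction followed by free suckling, UC against UU concerns feeding during suckling after the same prenatal restriction, and UU against CC concerns both restrictions together. The 3 comparisons share arrays in pairs and are not independent of each other. Litters are not given in the labels. Each array was treated as an independent animal. The p-values set a group difference against the spread between these arrays and make no allowance for shared litters.

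Several arrays stood apart before any comparison. Adipoq and Fabp4, taken as adipocyte markers, had signals of at least 25263 and 76829 on every array. Gpx5 of the epididymal epithelium was at 5711 to 69624 on 10 arrays and at 409.6 to 1155 on the other 4, replicates 2 and 4 of CC with replicates 2 and 5 of UC. CC replicate 2 and UC replicate 5 went against their male label, with Xist signals of 3981 and 5642 and Y-linked Eif2s3y signals of 58.6 and 7.9. The signal ratio of the 3' over the 5' control probe sets for Gapdh and Actb, a measure of RNA integrity and labelling, was 1.63 and 1.59 (log2) in UC replicates 1 and 4 and 2.10 in UU replicate 3, and 0.40 to 1.08 in the other 11. The summed signal of 10 liver markers was 2221 to 3877 in CC, 4537 to 94788 in UC and 4706 to 6258 in UU, so that every UC and UU array lay above every CC array. Sums of 4 brown adipocyte markers were 952.5 to 24251 in CC, 1071 to 26698 in UC and 1284 to 2125.5 in UU. Their medians were 1279, 1235 and 1666. Sums of 9 skeletal muscle markers were 1720.4 to 21310 in CC, 1600.3 to 3505 in UC and 2338 to 4042 in UU. The part of brown fat or muscle in the differences was not tested.

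The promoter sequences of a few members are shown first. RefSeq promoter windows of GRCm38.p6 (250 bases before to 50 bases after the gene's start) were at hand for 65 of the 74 members. The 4 members below were chosen because Mrpl40 was the only one that passed the adjusted test, while Mrpl10, Mrpl17 and Mrpl32 reached an unadjusted p under 0.05 in a comparison with UU and hold the motif of the nuclear respiratory factor NRF1. Shown are the 250 bases before the start, 5' to 3' on the gene's strand, with motif matches in capitals.
Mrpl40: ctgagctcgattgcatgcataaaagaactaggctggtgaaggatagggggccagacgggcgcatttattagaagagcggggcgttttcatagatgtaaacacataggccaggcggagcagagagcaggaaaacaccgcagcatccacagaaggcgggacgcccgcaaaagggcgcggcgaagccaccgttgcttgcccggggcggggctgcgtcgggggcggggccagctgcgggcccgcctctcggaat
Mrpl10: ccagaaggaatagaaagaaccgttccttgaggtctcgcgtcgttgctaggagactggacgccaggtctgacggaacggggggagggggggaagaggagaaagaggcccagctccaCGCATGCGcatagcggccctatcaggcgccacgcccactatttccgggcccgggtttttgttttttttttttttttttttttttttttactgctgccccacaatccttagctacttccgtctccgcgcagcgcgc
Mrpl17: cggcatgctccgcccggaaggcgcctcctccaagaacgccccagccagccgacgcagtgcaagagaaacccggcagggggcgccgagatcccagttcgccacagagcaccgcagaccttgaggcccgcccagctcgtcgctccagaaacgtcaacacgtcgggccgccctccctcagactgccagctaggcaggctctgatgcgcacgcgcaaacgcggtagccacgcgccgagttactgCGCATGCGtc
Mrpl32: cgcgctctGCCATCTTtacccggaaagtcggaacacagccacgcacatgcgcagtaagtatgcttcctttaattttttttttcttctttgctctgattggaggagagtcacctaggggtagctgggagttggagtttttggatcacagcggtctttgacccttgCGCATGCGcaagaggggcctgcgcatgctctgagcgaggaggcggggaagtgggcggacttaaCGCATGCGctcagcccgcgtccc
The Mrpl40 stretch lies on the minus strand at chr16:18876638-18876887. Mrpl10 lies on the plus strand at chr11:97041332-97041581, Mrpl17 on the minus strand at chr7:105811088-105811337 and Mrpl32 on the minus strand at chr13:14613038-14613287. All 4 stretches end at the base before the gene's start and hold none of its exons.

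The capitals mark exact matches to 3 motifs searched on both strands, namely CGCATGCG for NRF1, CCGGAAGT (ACTTCCGG on the other strand) for the ETS family to which GABPA belongs, and AAGATGGC (GCCATCTT) for YY1. Each of these factors is known to control nuclear genes for mitochondrial proteins, and no match overlapped another in the members. Mrpl32 holds the NRF1 motif at 86 and at 23 bases before its start and a YY1 motif at 242 bases before it. In Mrpl17 the NRF1 motif begins 10 bases before the start, and in Mrpl10 it begins 135 bases before it. The Mrpl40 window holds none of the 3, which says only that these letters are not in it. Over the 65 members with a window, 7 held the NRF1 motif (10.8%), 11 the ETS motif (16.9%) and 11 the YY1 motif (16.9%). The shares were 2.07%, 4.31% and 3.19% of all 27025 genes in the table, and 4.67%, 9.35% and 5.79% of the 6040 tested genes with a window. Any of the 3 was present in 28 members (43.1%), in 18.5% of the tested genes and in 31.4% of 70 respiratory chain and ATP synthase genes. Of those 70 genes, 12.9% held the NRF1, 7.14% the ETS and 14.3% the YY1 motif. These are descriptions of letters, with no test, and a match is not a binding site. The other NRF1 matches were in Mrpl22, Mrpl39, Mrpl9 and Mrps18b. None of these reached an unadjusted p under 0.05 in a comparison with UU. Mrps6, Mrps14, Mrpl23, Mrpl42 and Mrpl45 reached it, as Mrpl40 did, with no NRF1 match in their windows.

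UC against UU was the comparison in which a member passed the test. Mrpl40, a large subunit protein without a bacterial counterpart, had signals of 1893, 1988, 1912, 1720.1 and 2429 in the 5 UC mice and of 1377, 1312, 1071 and 1162 in the 4 UU mice. Every UC array was above every UU array. The group means were 1988 ± 265 (SD, n = 5) and 1230.4 ± 139.4 (SD, n = 4), a 1.60-fold difference (0.68 ± 0.14 on the log2 scale, coefficient ± SE, limma, adjusted p = 0.0395). The CC arrays lay between them, at 1519.8, 1533, 1471, 1534 and 1928.5 in replicates 1 to 5. All 4 UU arrays were below all 5 CC arrays, while CC replicate 5 lay inside the UC range. In bulk tissue, fewer cells of a type and less RNA per cell cannot be told apart.

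Mrpl40 was 1 of 60 genes of 7436 with an adjusted p under 0.05 in this comparison (0.807%), against 1 of 74 members. Its difference was above 0 in each of 31 alternative fits, from 0.57 to 0.80, but it was called in 14 of them. These fits reuse the same arrays and are not independent support. Several, such as those without a CC array or with another filter, cannot change this difference, so its sign there was fixed in advance. The call ended without the 4 samples low in Gpx5 (limma, adjusted p = 0.20), without the 2 with Xist signal (0.0875) and without the 3 of high 3'/5' ratio (0.119), over adjusted p-values of 0.0193 to 0.20 in all fits. It also ended when CC replicate 1 (0.0583) or 3 (0.0572), UC replicate 2 (0.104), 4 (0.0872) or 5 (0.0822), or UU replicate 1 (0.104), 2 (0.0663), 3 (0.0886) or 4 (0.0779) was left out.

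Cell type markers also differed between these groups. All 8 tested adipocyte markers were higher in UC than in UU (median log2 difference 0.84), with summed signals of 275834 to 513857 in UC and 254377 to 322078 in UU. Of 11 macrophage markers 10 were higher in UC (median 1.04), with sums of 53434 to 152475 against 21412 to 40986. Of 7 endothelial markers 6 were higher in UC (median 0.32), with sums of 11766 to 17686 against 9059 to 12103, and all 3 tested liver markers were (median 1.42). All 14 general epithelial markers (median -1.42) and all 6 tested epididymal markers (median -2.06) were lower in UC, with epithelial sums of 9971 to 61508 against 69157 to 89238 and epididymal sums of 1497 to 127581 against 26966 to 125082. The lowest signal of a single marker in these lists was 85.6 for adipocyte, 243.2 for macrophage, 69.7 for endothelial, 6.1 for liver, 15.1 for epithelial and 12.9 for epididymal markers. Their part in the differences of the ribosomal protein genes was not tested.

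On their brightest probe sets, the other members differed less between UC and UU. Unadjusted p-values under 0.05 were reached by 6 members higher in UC, which is 8.11% of them against 9.17% of all tested genes, and by 1 member lower, 1.35% against 8.74%, no more than the background in either direction. Mrps14, a small subunit protein with a bacterial counterpart, had UC signals of 3889.7, 4512, 4154, 5309.9 and 4742 and UU signals of 2591, 3553, 2462 and 4082. UU replicate 4 lay inside the UC range (log2 difference 0.53 ± 0.17, limma, adjusted p = 0.130). Mrpl17 had UC signals of 3928, 4306, 3222, 4171 and 4348 and UU signals of 3577, 3261, 1964 and 2368. Its groups overlapped through UC replicate 3, with a difference of 0.54 ± 0.19 (limma, adjusted p = 0.172).

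Mrpl45, which sits at the exit of the peptide tunnel and ties the ribosome to the inner membrane, had UC signals of 1234, 1805, 934, 1622 and 1161 and UU signals of 691, 933, 1051 and 905. UU replicate 3 lay above the lowest UC array, and the difference was 0.55 ± 0.20 (limma, adjusted p = 0.180). Mrpl10, which anchors the Mrpl12 stalk where translation factors dock, had UC signals of 2477, 3339, 2215, 3151 and 2431 and UU signals of 2141, 1733, 2049 and 2372. The groups overlapped through UU replicate 4, and the difference was 0.38 ± 0.15 (limma, adjusted p = 0.219). Mrpl42 of the large subunit had UC signals of 3533, 4571, 3118, 3585 and 3719 and UU signals of 2267, 3521, 1535 and 3474. Only 2 of the UU arrays lay below the UC range (0.52 ± 0.24, limma, adjusted p = 0.265).

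Mrpl23, another protein of the tunnel exit, was the single member at an unadjusted p under 0.05 in the other direction. Its signals were 1824, 2089, 1841, 1646 and 2443 in UC and 4069, 2785, 1633 and 2877 in UU. UU replicate 3 was the lowest of all 9 arrays while the other 3 UU arrays were above every UC array, and the difference was -0.46 ± 0.22 (limma, adjusted p = 0.269). Mrpl35, the last of the 8 members of smallest p, was at 2425 to 2960.3 in UC and at 2108 to 2546 in UU (0.26 ± 0.12, limma, adjusted p = 0.291).

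**Figure D1:**
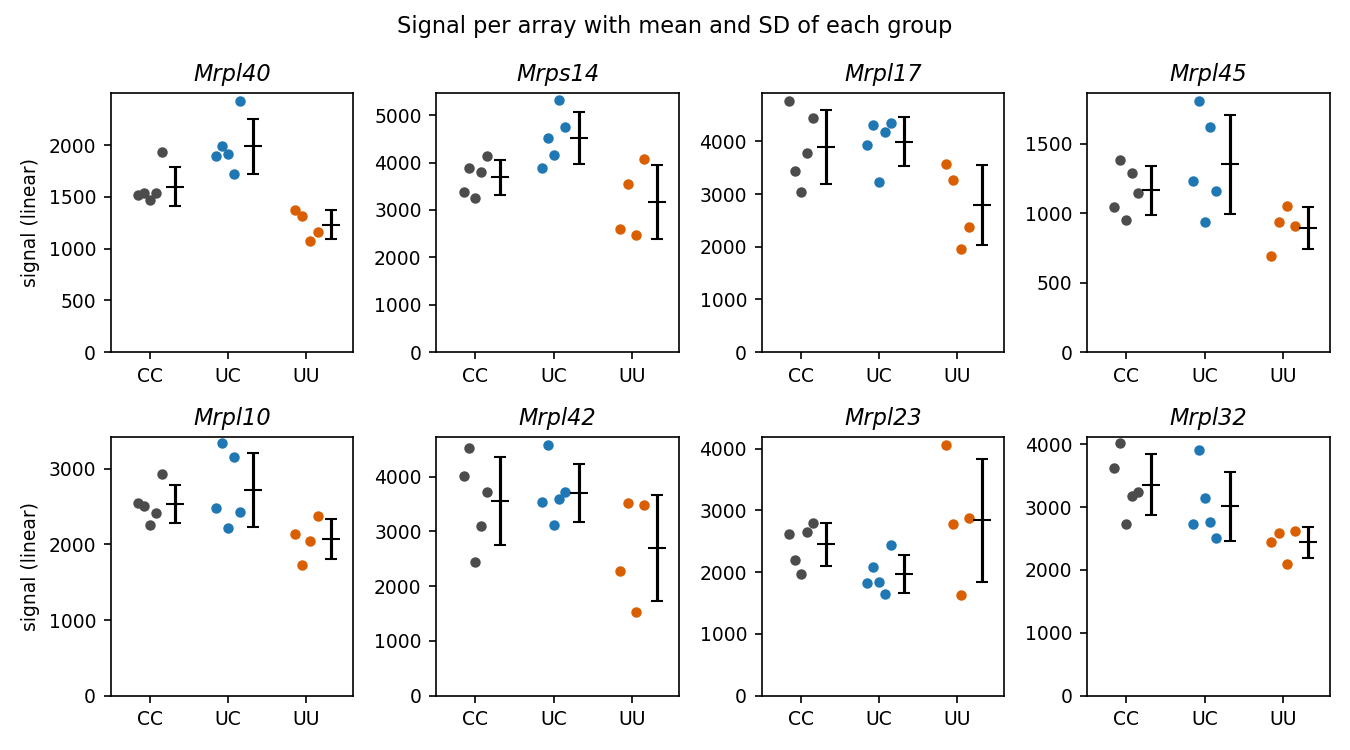
Signals of 8 members on a linear scale (y axis) in the CC (n = 5), UC (n = 5) and UU (n = 4) groups (x axis). Points are arrays and the black bars give the group mean and SD. In Mrpl40 the 5 UC arrays are at 1720.1 to 2429 and the 4 UU arrays at 1071 to 1377, while the groups overlap in the other 7 members for UC against UU.

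Groups that did not overlap were found for 2 members higher in UC than in UU, against 3.5% of all tested genes, and for 0 members lower, against 2.5%. The second was Mrpl41, a large subunit protein named here after its values were seen. Its UC signals were 3274 to 3604 and its UU signals 2734 to 3172, with a log2 difference of 0.20 ± 0.13 (limma, adjusted p = 0.421). On its next brightest probe set the groups overlapped, at 2281 to 4322 in UC and 2329 to 3606 in UU (log2 difference 0.22). As a list, 53 of the 74 members had a difference above 0 between UC and UU, against 43.3% of all tested genes. The median difference was 0.148 for the members and -0.056 for all tested genes. With each array centred on its median the all-gene median moved to 0.065 and that of the members to 0.270. Centring shifts every gene of an array alike, so the distance between the medians stayed at 0.205 by construction. The split of members became 64 above and 10 below 0, and 17 members were higher at an unadjusted p under 0.05 (23.0%, against 13.5% of all tested genes in that scaling). With quantile normalization the split was 60 and 14, and 8 members were higher (10.8%, against 10.3%).

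UU against CC gave no member with an adjusted p under 0.05, and none of the 7436 genes passed (0.0%, limma). Unadjusted p-values under 0.05 were reached by 4 members lower in UU, against 7.75% of all tested genes, and by 0 members higher, against 8.63%. Mrpl32, a large subunit protein that is cleaved by an inner membrane protease before it is built into the ribosome, had signals of 3619.5, 4019.8, 2736, 3169.7 and 3241 in CC and of 2443, 2588, 2098 and 2622 in UU. All 4 UU arrays were below all CC arrays, and the difference was -0.45 ± 0.16 (limma, adjusted p = 0.188). For Mrpl17 the CC signals were 4768, 3446, 3049, 3773 and 4434. The UU arrays at 3577 and 3261 lay within that range, and the difference was -0.50 ± 0.19 (limma, adjusted p = 0.220).

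Mrpl40 differed by -0.37 ± 0.14 between UU and CC (limma, adjusted p = 0.221), with the signals given above. Mrps6, a small subunit protein, had signals of 3537, 2621, 2898, 2525 and 3381 in CC and of 2375, 2215, 1314 and 2783 in UU. The groups overlapped through UU replicate 4 (-0.50 ± 0.22, limma, adjusted p = 0.275). Mrpl3, whose human counterpart is mutated in a mitochondrial cardiomyopathy, was at 2548 to 2955 in CC and at 1819 to 2514 in UU. It was the third member, beside Mrpl32 and Mrpl40, with every UU array below every CC array, against 3.63% of all tested genes (-0.29 ± 0.15, limma, adjusted p = 0.348). No member had every UU array above every CC array, against 4.71%.

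Among the other members of small p in UU against CC, Mrpl28 was the one with a positive difference, at 2569 to 3352 in CC and 3186 to 3723 in UU (0.29 ± 0.14, limma, adjusted p = 0.317). Mrpl27 was at 2738 to 4123 in CC and 1364 to 3338 in UU, with UU replicate 3 far below the other UU arrays (-0.45 ± 0.23, limma, adjusted p = 0.327). Mrpl2, near the peptidyl transferase centre, was at 1924 to 2298 in CC and 1299 to 2113 in UU (-0.35 ± 0.19, limma, adjusted p = 0.351). As a list, 51 of 74 members had a difference below 0, against 44.6% of all tested genes, with medians of -0.147 and 0.048. With median centring 61 members were below 0, and the medians were -0.224 for the members and -0.03 for all tested genes. In that scaling 10 members reached an unadjusted p under 0.05, all lower (13.5%, against 10.8% of all tested genes). Of the tested markers, 7 of 8 for adipocytes (median -0.89), 10 of 11 for macrophages (-1.02) and 7 of 7 for endothelium (-0.54) were lower in UU than in CC. All 3 for liver (0.76), all 14 for epithelium (0.93) and 5 of 6 for epididymis (1.54) were higher. The sums in CC were 260668 to 422819 for adipocyte, 49416 to 126953 for macrophage, 13053 to 21716 for endothelial, 8518 to 71752 for epithelial and 1065 to 138403 for epididymal markers. Their part was not tested here either.

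The shift of the list between UU and CC was smaller without 1 array. Relative to its CC mean, the median member was at -0.524 (log2) in UU replicate 3, against -0.081, -0.092 and 0.045 in UU replicates 1, 2 and 4. CC arrays lay between -0.108 and 0.135, and UC arrays between -0.097 and 0.175. UU replicate 3 was the lowest of the 14 arrays for 33 of the 74 members. Without it the median difference between UU and CC was -0.040, and the number of members with an unadjusted p under 0.05 was 2. Between UC and UU the median was 0.092 without it.

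**Figure D2:**
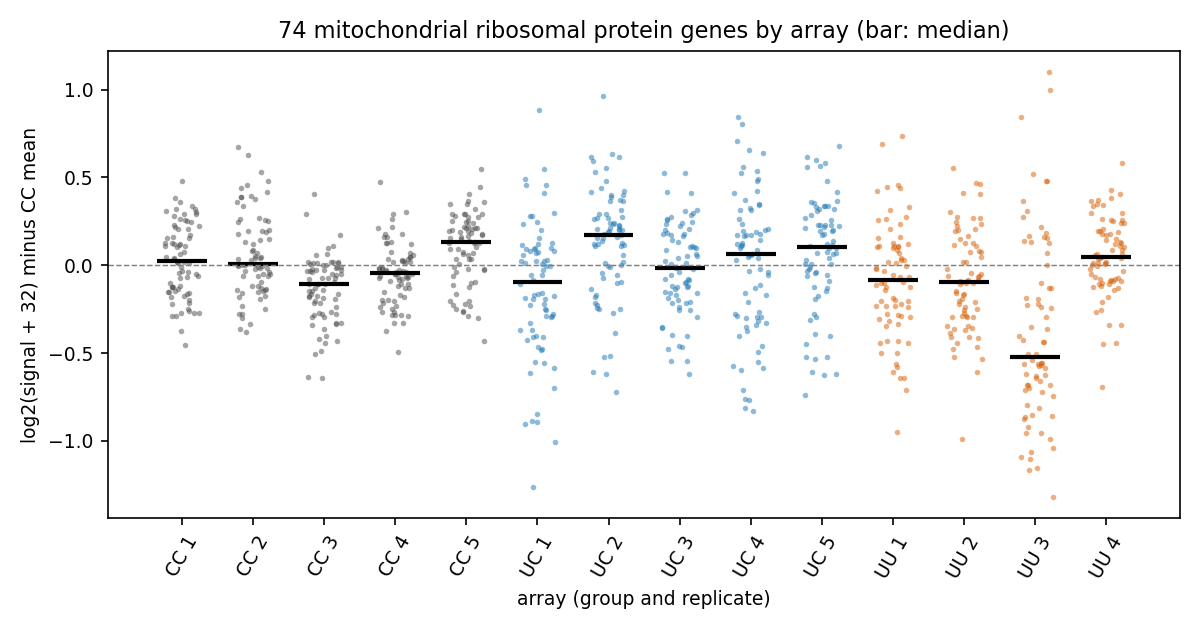
Levels of the 74 members (points) on each of the 14 arrays (x axis) as log2(signal + 32) minus the gene's mean in CC (y axis). Black bars are medians over the 74 genes. The bar of UU replicate 3 is at -0.524, and the bars of the other 13 arrays lie between -0.108 and 0.175.

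UU replicate 3 also had the highest 3'/5' ratio of the control genes. It was the lowest of the 14 arrays for the adipocyte genes Adipoq (25263), Fabp4 (76829) and Lipe (1517, against at least 3854 on the others) as well. The part of either in the shift was not tested. Over the 3 arrays of high ratio, 6 members had all 3 below each of the other 11 arrays (8.11%, against 3.44% of all tested genes), namely Mrpl14, Mrpl18, Mrpl23, Mrpl37, Mrpl49 and Mrps31. Mrpl44 and Mrpl52 had all 3 above the other 11 (2.70%, against 2.81%). The median difference between these 3 arrays and the rest was -0.214 for the members and -0.004 for all tested genes, and 19 of the 74 were above 0. As an example, Mrpl18 was at 457.4 to 742 on the 3 arrays and at 837 to 1376 on the others. Mrpl52 was at 8232 to 10608 on the 3 and at 4558 to 7666 on the others.

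With the ratio as a covariate the median difference between UU and CC was -0.045, and the median between UC and UU was 0.172. For UC against CC the median was 0.141 with the covariate and 0.041 without it. The mean ratio was 0.708 ± 0.326 (SD, n = 5) in CC, 1.22 ± 0.36 (SD, n = 5) in UC and 1.15 ± 0.64 (SD, n = 4) in UU. Mrpl40 differed by 0.69 between UC and UU in this fit (limma, adjusted p = 0.0193, against 0.0193 to 0.20 over all fits).

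**Figure D3:**
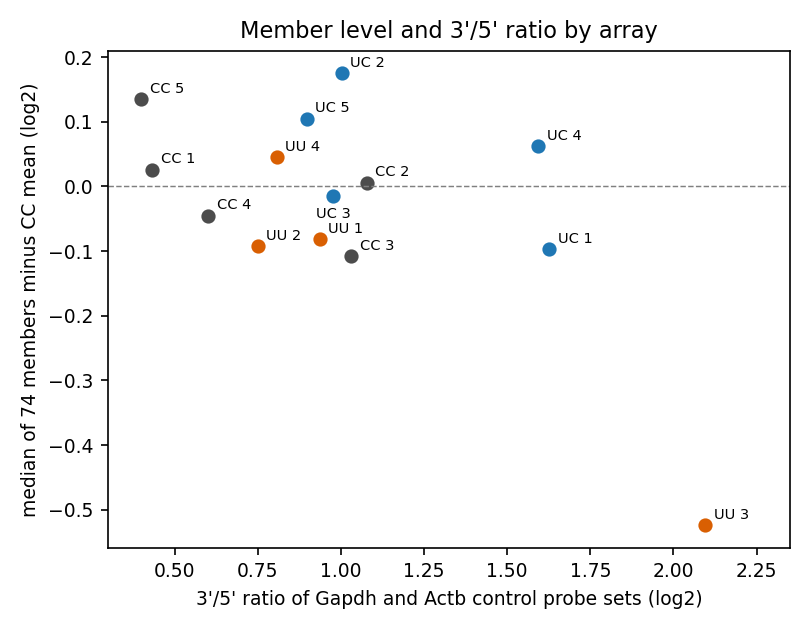
Median of the 74 members relative to their CC means (y axis, log2) against the 3'/5' signal ratio of the Gapdh and Actb control probe sets (x axis, log2), 1 point for each of the 14 arrays (CC grey, UC blue, UU orange). UU replicate 3 is at a ratio of 2.10 and a median of -0.524, while UC replicates 1 and 4, at ratios of 1.63 and 1.59, have medians of -0.097 and 0.063.

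UC against CC showed the smallest differences. No member and none of the 7436 genes had an adjusted p under 0.05 (0.0%, limma, smallest member value 0.522). Unadjusted p-values under 0.05 were reached by 3 members higher in UC, against 4.76% of all tested genes, and by 2 lower, against 3.99%. Mrpl57, a large subunit protein found only in mitochondria, had signals of 3869.6, 2377, 2909, 2935 and 3139 in CC and of 4009, 4034, 3756, 4929 and 3399 in UC. The groups overlapped through CC replicate 1, and the difference was 0.40 ± 0.16 (limma, adjusted p = 0.522). Mrps24, a small subunit protein, had signals of 2836, 3688, 3001, 2299 and 2407 in CC and of 4117, 5514, 3019, 4438 and 2886 in UC. UC replicates 3 and 5 lay inside the CC range (0.46 ± 0.21, limma, adjusted p = 0.563).

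Mrpl40 was the third of the higher members, with 0.31 ± 0.13 (limma, adjusted p = 0.554). Mrpl24 had signals of 3318, 3143, 2686, 2612 and 3539.8 in CC and of 2019, 2595, 2798, 1718 and 1971 in UC. UC replicate 3 was the only UC array within the CC range (-0.47 ± 0.20, limma, adjusted p = 0.549). Mrpl9 had signals of 1442, 2527, 1913, 2018 and 2214 in CC and of 1061, 1989, 1435, 1314 and 1509 in UC. The groups overlapped, and the difference was -0.47 ± 0.21 (limma, adjusted p = 0.563).

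No member had groups that did not overlap between UC and CC, against 1.01% of all tested genes higher and 0.78% lower. The remaining members of smallest p were Mrps22 (0.32 ± 0.15, limma, adjusted p = 0.571), Mrps34 (-0.38 ± 0.18, adjusted p = 0.577) and Mrpl52 (0.43 ± 0.21, adjusted p = 0.580). Mrps22, whose human counterpart is mutated in a neonatal mitochondrial disease, was at 1254 to 1870.4 in CC and 1564 to 2224 in UC. Of the 74 members 42 had a difference above 0, against 49.5% of all tested genes, and the medians were 0.041 and -0.003. The median was -0.014 without CC replicate 3. The widest single differences were -0.47 and 0.46. Of the tested markers, all 3 for liver were higher in UC than in CC (median 2.01, each at an unadjusted p under 0.05), with sums that did not overlap. Adipocyte markers were higher for 5 of 8 (median 0.092) and endothelial ones for 4 of 7 (0.077), while all 14 for epithelium (-0.42), 5 of 6 for epididymis (-0.53) and 6 of 11 for macrophages (-0.11) were lower. Their part was not tested.

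Both subunits had medians of the same sign in each of the 3 comparisons. In UC against UU the median difference was 0.137 over the 24 small subunit genes, with 18 above 0, and 0.167 over the 49 large subunit genes, with 34 above 0. In UU against CC the medians were -0.082 and -0.152, with 15 and 35 genes below 0, and in UC against CC they were 0.034 and 0.047. Genes with a bacterial counterpart (45) and ribosomal genes without one (28) had medians of 0.151 and 0.120 in UC against UU, -0.124 and -0.148 when UU was set against CC, and 0.030 and 0.074 when UC was. These groups of genes were not tested against each other. Mrps36, the non-ribosomal gene, differed by 0.40 ± 0.21 between UC and UU (limma, adjusted p = 0.323).

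Genes at defined points of the ribosome illustrate the size of the differences. Mrps12, of the decoding centre, was among the steadiest members, at 1972 to 2450.4 in CC, 2164 to 2655 in UC and 2040.3 to 2671 in UU, and the groups overlapped in every pair. Mrps17 had the lowest spread of all members, with an SD of 0.114 (log2) over the 14 arrays, and Mrpl19 the highest, with 0.505. Mrpl12, the stalk protein, was at 1111 to 2203 in CC, 1114 to 2097 in UC and 995 to 2088 in UU, nearly the same range in each group. Mrpl11, at the base of the stalk, was at 1628 to 3702, 2414 to 3556 and 2086 to 4981, its highest value being in UU replicate 3 (UU against CC 0.33 ± 0.25, limma, adjusted p = 0.506).

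The 3 paralogs Mrps18a, Mrps18b and Mrps18c derive from a single bacterial protein, the first in the large and the others in the small subunit. Their differences between UU and CC were -0.24 ± 0.21, 0.19 ± 0.17 and 0.21 ± 0.14, and between UC and UU 0.33 ± 0.21, 0.01 ± 0.17 and -0.03 ± 0.14 (limma, adjusted p from 0.408 to 0.982). Mrps18a ranged from 1663 to 2282 in CC and from 1097 to 2532 in UU, the lowest being UU replicate 3. Mrps16, whose human counterpart is mutated in a fatal neonatal respiratory chain disease, was at 1156 to 2547 in CC, 1062 to 1775 in UC and 840.5 to 1929 in UU. Its difference from CC was -0.46 ± 0.24 in UC and -0.44 ± 0.25 in UU (limma, adjusted p = 0.609 and 0.382), and the groups overlapped.

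Mrpl44, related to the ribonuclease III family, was at 3366 to 4432 in CC, 4326 to 5742 in UC and 4268 to 7334 in UU. Its highest values, 7334, 5742 and 5616, were those of the 3 arrays of high 3'/5' ratio (UC against CC 0.28 ± 0.16, limma, adjusted p = 0.636). Mrps30 was at 1738 to 2964 in CC, 1659 to 3264 in UC and 1452 to 2318 in UU. Mrpl33 was at 1074 to 1915, 1144 to 1646 and 979.5 to 1511. The probe sets of highest signal were those of Mrps14, Mrps17 and Mrps24 for the small and Mrpl52, Mrpl39 and Mrpl51 for the large subunit, which ranks probe sets and not the abundance of the proteins. Mrpl39 was at 4959.7 to 8778 in CC, 5688 to 8132 in UC and 5287 to 7831 in UU, and Mrpl51 at 5583 to 7268, 5287 to 8336 and 5456 to 6089.8.

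The spread of the members was below that of all tested genes. The median SD over the 14 arrays was 0.300 (log2) for the 74 members and 0.344 for all tested genes, and the median SD within groups was 0.281 and 0.323. The median absolute difference between UC and UU was 0.194 for the members and 0.236 for all tested genes. The median standard error of that difference was 0.193 for the members and 0.216 for all genes, so a typical member differed by about its standard error.

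Second probe sets gave a partial check, as 33 members had 53 dimmer ones. The sign of the difference was that of the brightest probe set for 36 of the 53 in UC against UU, 28 for UU against CC and 33 for UC against CC. The dimmer probe set of Mrpl17 differed by 0.14 between UU and CC, against -0.50 for the brightest, and by 0.09 between UC and UU. That of Mrps14 differed by -0.08 between UC and UU, against 0.53. That of Mrps24 differed by 0.01 between UC and CC, against 0.46, while Mrpl57 and Mrpl9 had 0.42 and -0.40, close to their brightest probe sets. The 3 dimmer probe sets of Mrpl52 differed by -0.09, -0.21 and -0.62 between UC and CC, against 0.43, and with the mean over its probe sets Mrpl52 was at -0.12. Between UU and CC the dimmer probe sets of Mrpl28 differed by 0.35 and -0.34, against 0.29 for its brightest. Those of Mrpl11 differed by -0.28, 0.42 and 0.32, against 0.33. Mrpl49, picked here after its values were seen, had a dimmer probe set that differed by 1.34 between UC and UU, against 0.08 for its brightest. The signals of that dimmer probe set were 609 to 1228 in UC and 71 to 561.5 in UU. Between UU and CC it differed by -1.06, against -0.16, and it was not tested on its own. Mrpl40, Mrpl45, Mrpl10, Mrpl23, Mrpl24, Mrpl32 and Mrps6 had a single probe set.

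The proteins that the mitochondrial ribosome serves and the ribosome of the cytoplasm were set beside the members. Over 74 tested genes for subunits of the respiratory chain and ATP synthase, the median difference was 0.281 between UC and UU, -0.201 between UU and CC and 0.075 between UC and CC. At an unadjusted p under 0.05, 15 were higher and 0 lower in UC against UU, where 9.17% and 8.74% of all tested genes were. In UU against CC 0 were higher and 8 lower (all genes 8.63% and 7.75%), and in UC against CC 9 were higher and 1 lower (all genes 4.76% and 3.99%). Over 43 cytoplasmic ribosomal protein genes the medians were -0.202, 0.160 and -0.113, opposite in sign to those of the mitochondrial ribosomal proteins. No gene of either list passed the adjusted test (limma, smallest adjusted p = 0.130). UU replicate 3 was the lowest array for the respiratory chain too, with a median of -0.534 relative to the CC mean, and its median for the cytoplasmic ribosome was -0.157.

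**Figure D4:**
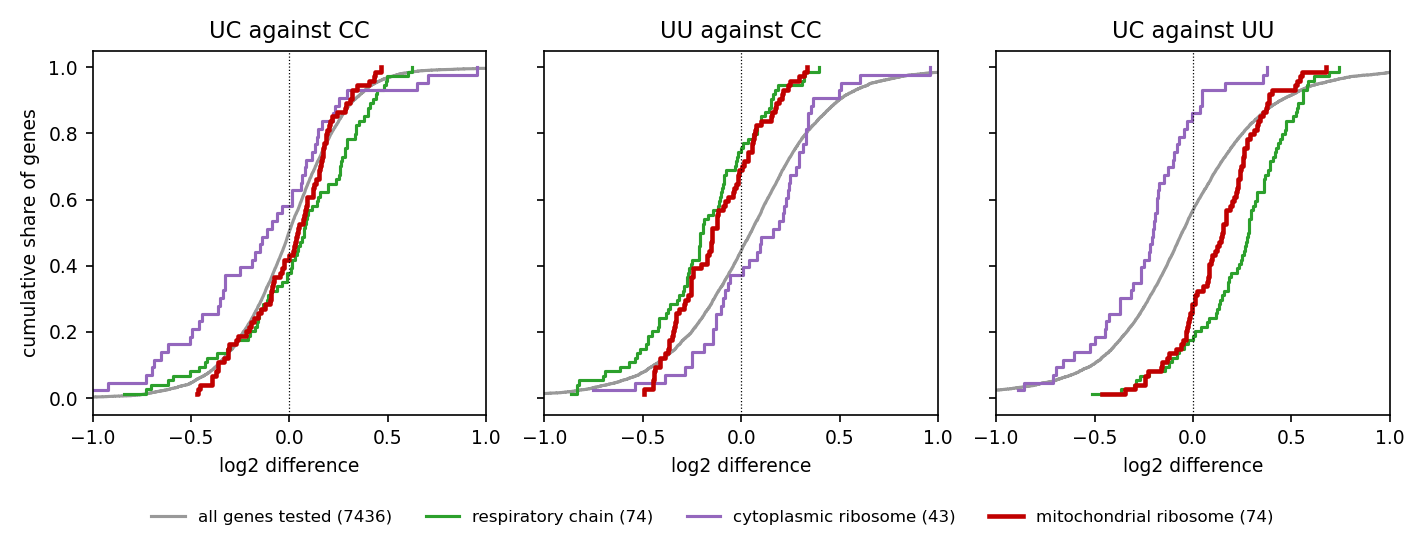
Cumulative share of genes (y axis) by log2 difference (x axis, cut at -1 and 1) for the 74 mitochondrial ribosomal protein genes, 74 respiratory chain genes, 43 cytoplasmic ribosomal protein genes and all 7436 tested genes, 1 panel per comparison. In UC against UU the medians are 0.148, 0.281, -0.202 and -0.056, and in UC against CC they are 0.041, 0.075, -0.113 and -0.003.

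Other genes of mitochondrial gene expression showed no called difference. Of 4 further ribosomal proteins that go under other names 3 were tested, Dap3, Chchd1 and Ptcd3, with differences of -0.21 ± 0.19, 0.36 ± 0.18 and 0.27 ± 0.17 between UC and UU. Over 7 translation factors the median was 0.224 in UC against UU, -0.093 for UU against CC and -0.158 for UC against CC, with 0 at an unadjusted p under 0.05 in any of them. Gfm1, an elongation factor, had a mean of 2536 ± 518 (SD, n = 5) in UC and 2047 ± 246 (SD, n = 4) in UU (0.29 ± 0.16, limma, adjusted p = 0.352). Gfm2, a factor for ribosome recycling, differed by 0.38 ± 0.21 between UC and CC, and Oxa1l, the insertase of the inner membrane, by -0.65 ± 0.37 between UU and CC (limma, adjusted p = 0.629 and 0.378).

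Over 11 tested genes for assembly of the mitochondrial ribosome the medians were -0.034, -0.016 and 0.074 in the same order, and again 0 reached an unadjusted p under 0.05. Among them Fastkd2, an RNA-binding assembly factor, differed by 0.41 ± 0.23 and Tfb1m, a methyltransferase of the ribosomal RNA, by 0.44 ± 0.27 between UU and CC (limma, adjusted p = 0.374 and 0.405). Ngrn, an assembly factor, differed by -0.42 ± 0.28 between UC and CC (limma, adjusted p = 0.668). Of 7 mitochondrial aminoacyl-tRNA synthetases, which load the tRNAs, UC exceeded CC in 1 and was below it in 1 at an unadjusted p under 0.05 (all tested genes 4.76% and 3.99%). Tars2 differed by 0.40 ± 0.18 and Hars2 by -0.46 ± 0.17 (limma, adjusted p = 0.563 and 0.518). Sars2, of the same family, differed by 0.49 ± 0.26 between UC and UU (limma, adjusted p = 0.328).

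Over 9 genes for transcription and replication of mitochondrial DNA the medians were -0.028, 0.068 and -0.004. Tfam, which packages and transcribes mitochondrial DNA, had means of 1344 ± 75 (SD, n = 5) in UC and 1653 ± 270 (SD, n = 4) in UU (-0.28 ± 0.14, limma, adjusted p = 0.315). Polrmt, the mitochondrial RNA polymerase, differed by 0.30 ± 0.17 between UC and CC and Polg, the DNA polymerase, by -0.19 ± 0.14 between UU and CC (limma, adjusted p = 0.638 and 0.501). Of 7 tested regulators, Pprc1, a coactivator related to PGC-1α, was at 687 to 1096 in CC and, without overlap, at 268.5 to 633 in UC. Its difference was -0.80 ± 0.26 (limma, adjusted p = 0.502), and between UC and UU it was -0.63 ± 0.28 (adjusted p = 0.250). UC lay below CC without overlap in 0.78% of all tested genes. Ppargc1b differed by 0.50 ± 0.26 between UC and UU and Yy1 by 0.32 ± 0.17 between UU and CC (limma, adjusted p = 0.312 and 0.334). Nrf1 and Gabpa, whose motifs were searched above, differed by -0.21 ± 0.22 and 0.13 ± 0.21 between UC and UU (adjusted p = 0.634 and 0.770). Ppargc1a fell under the filter on dim genes and was not tested. Its signals were 289 to 543 in CC, 322 to 716 in UC and 547 to 725 in UU. Its lowest UU array, at 547, was only just above its highest CC array, at 543. UU lay above CC without overlap in 4.71% of the tested genes, which do not include Ppargc1a.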

How the data were processed

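RNA of epididymal fat was hybridised to single-channel Affymetrix arrays. The deposited values are linear intensity signals that the authors made in GCOS 1.3 by the MAS5 method, as the submitters' processing notes list them. Each array's mean signal, trimmed by 2% at each end, was 1500.45 to 1500.57. No 2 arrays held the same values (highest correlation of log2 values over all pairs 0.952), and the number of arrays limits the precision. Groups come from the labels.

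Platform annotation gave 20380 of 22690 probe sets 1 gene symbol, 691 several, 1555 none and 64 were controls. Symbols were updated by Entrez identifier for 20351. Mrpl30 and Mrpl53 lie on probe sets with several symbols and are not analysed here. Log2(signal + 32) of the brightest probe set was fitted for 7436 of 12393 genes (dimmest 40% left out) with limma 3.58.1 in R 4.3.3, with 14 arrays, 3 two-sided contrasts, 11 residual degrees of freedom and a variance trend. Calls were made at an adjusted p under 0.05 (Benjamini-Hochberg over the genes of each comparison separately, with no allowance for there being 3 comparisons). The fit was tested on simulated data. Errors of log2 differences are moderated standard errors.

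Members and lists were chosen with earlier results of these data known. Named are the 8 members of smallest p per comparison, the 3 brightest of each subunit, a fixed panel of 13 and up to 3 genes per related list. Alternatives covered pseudocount, filter, scaling, probe set rule, variance model, covariates and samples.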

Additional observations from a re-analysis of the deposited data

Results flagged for a closer look

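For the named members 105 group values were examined with Dixon's criterion at 95%, which flags about 1 group in 20 by chance, and 8 had an array far from the rest of its group. In UC, replicate 5 had a signal of 1351.9 for Mrpl2, against 2097 to 2389 in the other UC arrays, and of 2038 for Mrps34, against 1619 to 1720.3. This is 1 of the 2 arrays with Xist signal. UC replicate 1, of high 3'/5' ratio, was at 2346 for Mrpl27, against 3066 to 3233.

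In UU, replicate 3, which had the highest 3'/5' ratio, was at 1364 for Mrpl27, against 2958 to 3338 in the other UU arrays. Replicate 2 was at 979.5 for Mrpl33, against 1487 to 1511, and at 2546 for Mrpl35, against 2108 to 2140.4. In CC, replicate 5 was at 1928.5 for Mrpl40, against 1471 to 1534, and at 3884 for Mrps17, against 3251 to 3361.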

How the results depend on the processing

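Under 31 alternatives 0 members were called in UC against CC and in UU against CC, and 0 or 1 in UC against UU. The called count in UC against UU was 0 with no filter on dim genes, with array weights, with only the 2 groups compared, with the replicate block (Mrpl40 adjusted p = 0.0505, limma), with epididymal marker level as covariate, without the 4 samples low in Gpx5, without the 2 with Xist signal and without the 3 of high 3'/5' ratio. Leaving out 1 array gave 0 to 1.

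The number of members at an unadjusted p under 0.05 was 5 in UC against CC. It was 9 with array weights, 10 with the replicate block, 3 without the 4 samples low in Gpx5 and 3 without the 3 of high ratio. It ranged from 1 (without UC replicate 4) to 8 (without UU replicate 3) with 1 array left out, and was 2 without CC replicate 1 or 4 and 3 without UC replicate 1. In UU against CC it was 4, and it was 10 with median centring (13.5% of members, 10.8% of all tested genes lower), 8 with array weights, 7 without the 4 samples low in Gpx5 and 8 without the 2 with Xist signal. It ranged from 2 (without CC replicate 5 or UU replicate 3) to 13 (without UU replicate 4), with 7 without CC replicate 2 or 3. In UC against UU it was 7, and it was 17 with median centring (23.0% of members, 13.5% of all tested genes higher), 4 with only the 2 groups compared, 11 without the 2 samples with Xist signal and 4 without the 3 of high ratio. It ranged from 4 (without UC replicate 2 or 4) to 11 (without UC replicate 5).

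The median difference of the members stayed below 0 in UU against CC (-0.224 to -0.040) and above 0 in UC against UU (0.075 to 0.270) in all 31. These fits reuse the same arrays, and some cannot change a given difference, so they are not independent support. The median of all tested genes also moved with the scaling. In UC against CC it ran from -0.014 to 0.141, the highest with 3'/5' ratio as covariate. Deviations of same-numbered arrays correlated at -0.324 to 0.486. These values were not set beside those of other pairs, so they do not settle whether the numbers pair the samples. The main fit did not pair them. The causes were not tested.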
